A study of Homo sapiens with 4 samples.

Results

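The 34 genes described here encode proteins of homologous recombination, the Fanconi anemia pathway and the DNA damage checkpoint. They were taken by name from the 23362 genes of the deposited expression table and a symbol listed more than once took the entry with the highest mean. All 34 passed the floor of FPKM 1 in a library and none was at 0 in any library. FPKM is the number of sequenced fragments of a gene scaled by its length and by the size of the library, so that levels of different genes can be set side by side.

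The RNA came from MKN28, a human gastric adenocarcinoma cell line, as 1 library for each of 4 stable lines made with a retroviral, doxycycline-inducible (tet-on) system. Luc cells carried luciferase and served as the control, WT cells carried KIAA1324, 3NQ cells carried KIAA1324 with its putative N-glycosylation sites changed from asparagine to glutamine, and ΔTM cells carried KIAA1324 without its transmembrane domain. The comparison asks whether KIAA1324, a transmembrane protein described as a gastric tumor suppressor, alters these genes and whether that needs its N-glycans. The sources do not say whether the cells had received doxycycline when RNA was prepared, and with 1 library a group no difference has a replicate check and no p-value is given. The FPKM of KIAA1324 itself reached 11185 in WT and 8197 in 3NQ, against 2.86 in Luc, and it was listed at 0 in the library carrying the ΔTM label, which is therefore called the ΔTM-labelled library.

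Between 11297 and 11406 genes reached an FPKM of 1 in each library, and the depth of the libraries is unknown because the table holds no counts. EPCAM, an epithelial surface protein, had an FPKM of 345 to 391, whereas the intestinal gene VIL1 was listed at 0 in all 4 libraries and CDX2 was between 0.832 and 1.96. Of 10 epithelial markers 9 reached an FPKM of 1, and their sum was between 8192 in WT and 13934 in Luc. Most of this sum was KRT8 and KRT18, the paired keratins of simple epithelium, which were lower in WT than in Luc by more than 1.5-fold (log2 ratios −0.91 and −0.80). KRT8 had an FPKM of 4510 in WT against 8501 in Luc, and KRT18 of 2115 against 3684. Of 6 fibroblast markers, 5 were below 1 in every library, with a summed FPKM of 12.5 to 15.5 that was almost all COL1A1. Of 5 immune markers, 4 were below 1, with a sum of 4.63 to 5.93 that was mostly CD68.

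Homologous recombination repairs a broken chromosome, or a collapsed replication fork, by copying the sister chromatid, and it is therefore used in S and G2 phase. The ends are sensed and resected, BRCA1 and BRCA2 and their partners prepare the strands for exchange, and the joined molecules are then separated. The Fanconi proteins recognize an interstrand crosslink and add ubiquitin to FANCD2 and FANCI, and the kinases ATM and ATR hold the cell cycle through CHEK2 and CHEK1 while repair proceeds. Many of these genes are transcribed mainly in dividing cells, and E2F factors, NF-Y and the DREAM complex, which binds CHR elements, are known regulators of such genes.

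The promoters of CHEK2 and RAD51AP1 are shown because these genes had the largest differences between WT and Luc, and that of PALB2 because it had the smallest at a mean FPKM of at least 5. Each run gives the 250 bases before the RefSeq transcription start on GRCh38.p14, and capitals mark each CCAAT box, the motif of NF-Y, read on either strand.
CHEK2 (chr22:28741821-28742070, minus strand): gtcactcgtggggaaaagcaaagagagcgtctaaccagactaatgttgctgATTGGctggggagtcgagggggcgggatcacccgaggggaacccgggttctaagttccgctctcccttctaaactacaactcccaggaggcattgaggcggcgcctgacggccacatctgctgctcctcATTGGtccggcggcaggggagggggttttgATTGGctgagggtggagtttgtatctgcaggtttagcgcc
RAD51AP1 (chr12:4538640-4538889, plus strand): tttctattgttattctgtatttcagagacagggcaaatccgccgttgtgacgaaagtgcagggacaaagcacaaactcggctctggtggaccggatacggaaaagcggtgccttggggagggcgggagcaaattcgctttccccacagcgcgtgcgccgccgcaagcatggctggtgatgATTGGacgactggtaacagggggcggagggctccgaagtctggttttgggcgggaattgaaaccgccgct
PALB2 (chr16:23641311-23641560, minus strand): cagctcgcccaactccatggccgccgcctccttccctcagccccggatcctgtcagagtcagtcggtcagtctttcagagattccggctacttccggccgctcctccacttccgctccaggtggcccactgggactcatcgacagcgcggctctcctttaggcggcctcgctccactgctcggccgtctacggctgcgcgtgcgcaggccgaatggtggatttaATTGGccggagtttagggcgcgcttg

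CHEK2 held 3 such boxes in this stretch, RAD51AP1 held 1 and PALB2 held 1. The GC box (GGGCGG on either strand) occurred 1 time in CHEK2, 3 times in RAD51AP1 and not in PALB2. None of these runs held an E2F motif, taken as TTTCCCGC or TTTGGCGC or TTTCGCGC or TTTGCCGC on either strand.

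RefSeq promoters, from 250 bases before to 50 after the start, were at hand for 32 of the 34 genes, without RAD54B and FANCI. An E2F motif occurred in 6 of the 32 promoters (18.8%), compared to 3.33% of 27305 promoters of the same length. The 7 sites in these 6 genes are shown in capitals with 11 bases on each side, because they are the matches on which this share rests.
XRCC2 (chr7:152676102-152676131, minus strand): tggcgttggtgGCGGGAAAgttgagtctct
EXO1 (chr1:241848197-241848226, plus strand): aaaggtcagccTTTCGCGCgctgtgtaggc
FANCA (chr16:89816801-89816830, minus strand): actacaccgcgGCGGCAAAgccaaacgcaa
FANCC (chr9:95317863-95317892, minus strand): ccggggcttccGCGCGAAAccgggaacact
FANCC (chr9:95317737-95317766, minus strand): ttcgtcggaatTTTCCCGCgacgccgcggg
FANCD2 (chr3:10026424-10026453, plus strand): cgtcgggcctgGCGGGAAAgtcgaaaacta
CLSPN (chr1:35769965-35769994, minus strand): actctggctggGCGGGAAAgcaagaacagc

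The sites of CLSPN, FANCD2, EXO1 and XRCC2 had their centre within 25 bases of the start. Those of FANCA and FANCC lay farther away, at 168 bases before the start in each gene, with another FANCC site at 42 bases. A CCAAT box occurred in 15 of the 32 promoters (46.9%, against 35.7% of all), a GC box in 26 (81.2%, against 44.6%) and the CHR element TTTGAA in 3 (9.38%, against 15.4%). The promoters of all genes include many that are not expressed in these cells, so that these shares are a description and show no binding.

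**Figure D1:**
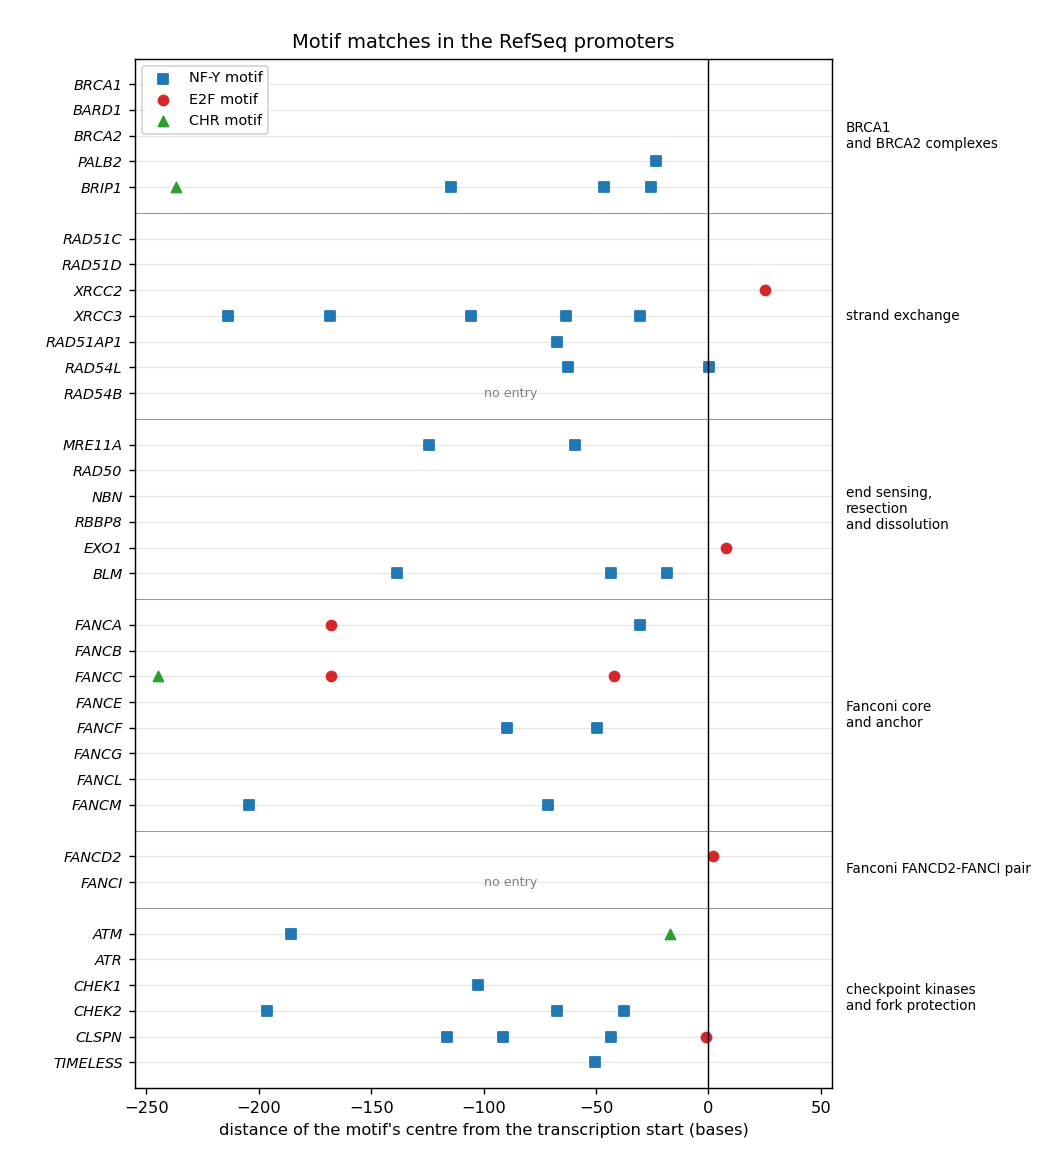
Motif matches in the promoters of the 34 genes, with the distance of each motif's centre from the RefSeq start in bases on the x axis and 1 row for each gene; the NF-Y motif is the CCAAT box, and GC boxes are not drawn. E2F matches sit in 6 genes and CCAAT boxes in 15, while RAD54B and FANCI have no entry.

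The genes that carry a promoter E2F motif were XRCC2, EXO1, FANCA, FANCC, FANCD2 and CLSPN. Their median log2 ratio of WT to Luc was −0.34, and their values lay between −0.57 and −0.09. The 26 genes without the motif had a median of −0.24, and lay between −0.69 and 0.15, so that both groups overlapped. By GC box, the median was −0.34 over 26 genes with it and −0.04 over the 6 without it (BRCA2, PALB2, RAD51C, FANCF, FANCM and ATM). These groups overlapped too, with values from −0.69 to 0.15 and from −0.28 to 0.04. In 3NQ the 2 medians were −0.17 and −0.094, and in the ΔTM-labelled library −0.055 and −0.083, the reverse order. By CCAAT box, the WT to Luc median was −0.22 over the 15 genes with it and −0.31 over the 17 without it. The 2 genes with the largest differences, CHEK2 and RAD51AP1, held no exact match to the E2F letters given above. Looser matches were not searched, nor were the promoters of RAD54B and FANCI, and the part of E2F in these values was not tested.

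In Luc cells the 34 genes ranged from an FPKM of 3.33 for BRIP1 to 131 for FANCI, with a median of 15.8, close to the median of 16.3 over the 11729 genes that reached an FPKM of 1 in a library. FANCI, with CHEK1 at 74.6, stood well above the others, of which the highest was FANCL at 38.9. For the module the median FPKM came to 12.9 in WT, against 15.0 in 3NQ and 15.2 in the ΔTM-labelled library. Its median rank among the expressed genes was at percentile 43.2 in WT and between 48.4 and 49.1 in the other libraries.

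**Figure D2:**
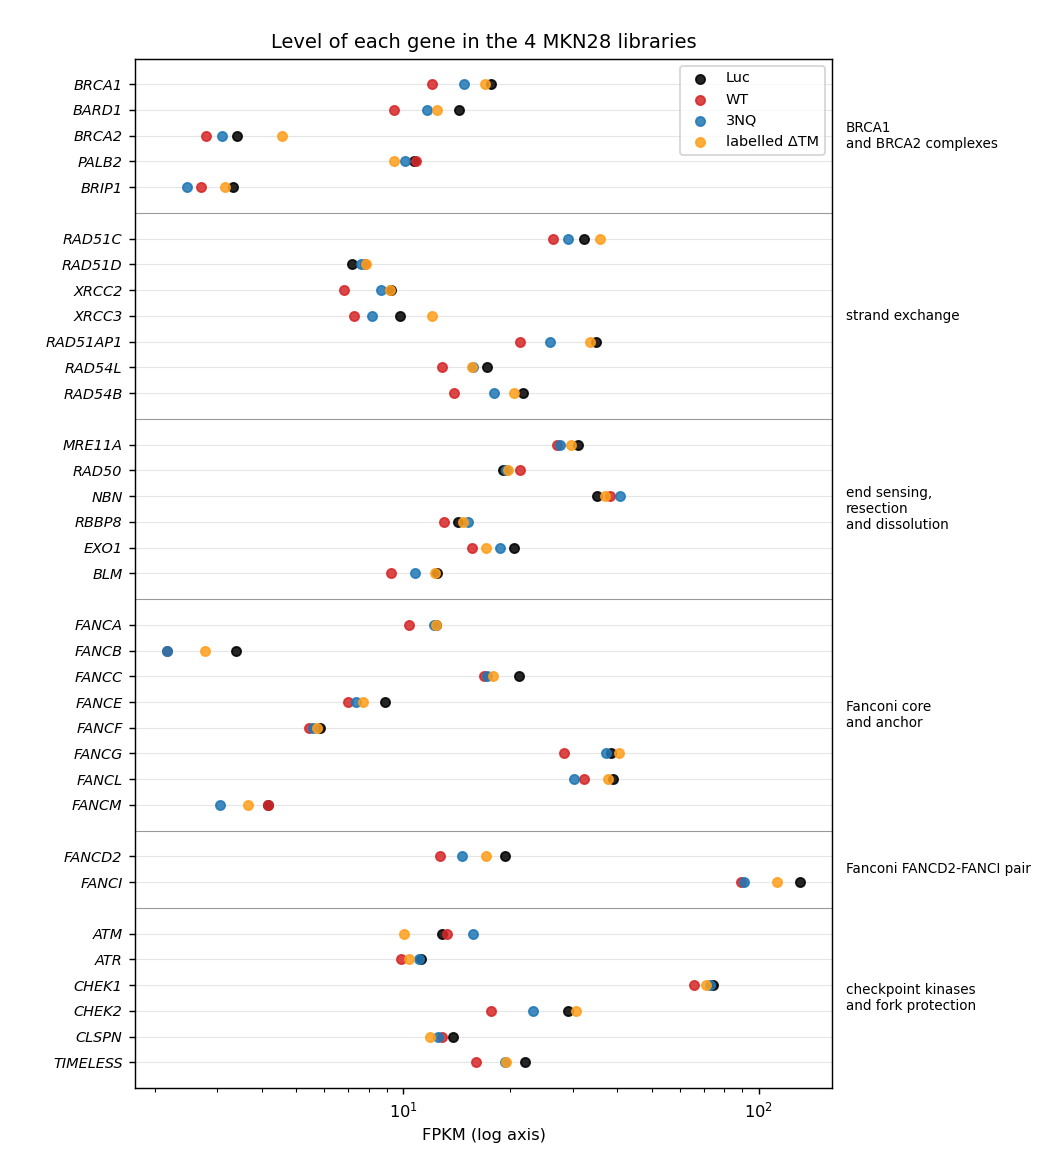
FPKM of each of the 34 genes on a log axis, with 1 point for each of the 4 libraries. WT (red) is the lowest point for 24 genes, and FANCI and CHEK1 lie to the right of all others.

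WT cells had lower levels of most of the module than Luc cells. Of the 34 genes, 28 were below Luc, compared to 50.9% of all expressed genes, and the median log2 ratio of FPKM + 1 was −0.29, compared to −0.0049 over all 11729 genes. Markers of proliferation were lower as well, with a median of −0.42 over 14 genes, and their part in these values was not tested. At a 1.5-fold threshold (a log2 ratio of 0.58), 3 genes were called lower (8.82% of the module, against 3.3% of all genes) and none higher (against 3.35%). The called genes were CHEK2, RAD51AP1 and RAD54B, and FANCD2 (−0.57), BARD1 (−0.56) and FANCI (−0.55) lay just outside. At a lower threshold, a log2 ratio of 0.32, 15 genes were lower (44.1%, against 12.7% of all genes) and none was higher (against 11.3%). With a pseudocount of 0.1 in place of 1, the 1.5-fold threshold called 6 genes, with BARD1 (−0.60), FANCB (−0.62) and FANCD2 (−0.61) in addition, and the share of all genes called lower was then 5.54%.

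The 6 genes that were not below Luc in WT were PALB2, RAD51D, RAD50, NBN, FANCM and ATM, and the highest of their ratios was 0.15, for RAD50. Thus, no gene of the module exceeded Luc in WT by the lower threshold.

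The module was closer to Luc in 3NQ than in WT, and in the ΔTM-labelled library its median was that of all genes. In 3NQ, 29 of the 34 genes were below Luc (57% of all genes were) and the median log2 ratio was −0.15, compared to −0.038 over all genes. None was called lower or higher at 1.5-fold, where 2.54% and 1.72% of all genes were. At the lower threshold 7 genes were lower (20.6%, against 11.6%) and none higher (against 6.97%). These 7 were FANCI, FANCB, RAD51AP1, FANCD2, FANCL, FANCM and BRIP1, and with a pseudocount of 0.1 FANCB (−0.62) passed the 1.5-fold threshold, as 4.89% of all genes did.

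In the ΔTM-labelled library, 25 of the 34 genes were below Luc, compared to 63% of all genes. Their median log2 ratio of −0.058 was close to that of all genes, −0.060. None passed 1.5-fold in either direction, where 1.57% of all genes were lower and 1.53% higher. At the lower threshold ATM (−0.33) was lower and BRCA2 (0.33) higher, compared to 8.28% and 5.12% of all genes. WT, 3NQ and the ΔTM-labelled library were all set against 1 Luc library, so that these comparisons are not independent of each other.

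**Figure D3:**
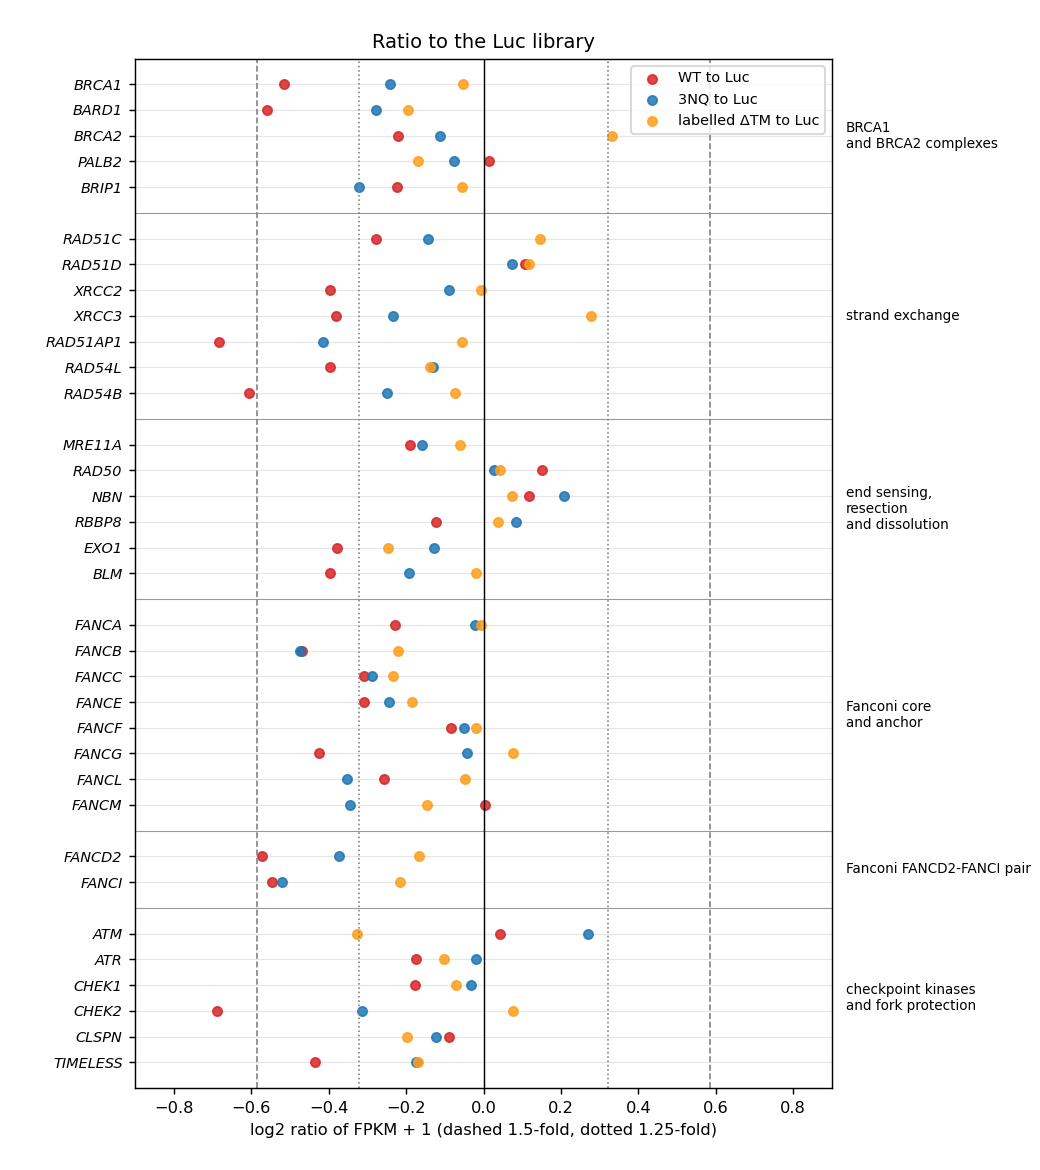
Log2 ratio of FPKM + 1 to Luc for each gene in WT (red), 3NQ (blue) and the ΔTM-labelled library (orange), with dashed lines at 1.5-fold and dotted lines at a log2 ratio of 0.32. Red points lie left of 0 for 28 genes and pass the dashed line for CHEK2, RAD51AP1 and RAD54B.

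WT was the lowest of the 4 libraries for 24 of the 34 genes (70.6%), compared to 26.6% of all expressed genes, and Luc was the highest for 22 (64.7%), compared to 30.6%. The level in 3NQ lay between WT and Luc for 25 genes (73.5%, against 40.3%). The complete order from WT through 3NQ and the ΔTM-labelled library up to Luc was seen for 14 genes (41.2%), compared to 8.22%. The median log2 ratio of WT to the mean of the remaining 3 libraries was −0.24, and 11 genes were lower by at least 0.32 (32.4%, against 8.8%).

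Set directly against 3NQ, WT had a median log2 ratio of −0.15, compared to 0.025 over all genes. No gene of the module differed by 1.5-fold, where 1.53% of all genes were lower and 2.87% higher in WT. At the lower threshold FANCG (−0.38), CHEK2 (−0.38) and RAD54B (−0.36) were lower (8.82%, against 6.71%), and FANCM (0.35) was higher (2.94%, against 11.1%).

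Against the ΔTM-labelled library, WT had a median of −0.22, compared to 0.047 over all genes. CHEK2 (−0.76), XRCC3 (−0.66) and RAD51AP1 (−0.63) were lower in WT by 1.5-fold (8.82%, against 2.89%) and none was higher (against 4.22%). At the lower threshold 13 genes were lower (38.2%, against 10.5%), and ATM (0.37) was higher (2.94%, against 15.7%). Only CHEK2 passed with a pseudocount of 5 (1.18% of all genes), and with libraries rescaled to their upper quartile 5 genes passed, with BRCA2 and RAD54B in addition (3.8% of all genes).

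Between 3NQ and the ΔTM-labelled library, the median was −0.082, compared to 0.021 over all genes. ATM (0.60) was higher in 3NQ by 1.5-fold (2.94%, against 1.42%) and no gene was lower (against 1.84%). This call was lost with a pseudocount of 5 or when the scaling was by the median of ratios. At the lower threshold XRCC3, BRCA2, CHEK2 and RAD51AP1 were lower in 3NQ (11.8%, against 7.7%), and ATM was again the gene that was higher (against 6.93%).

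**Figure D4:**
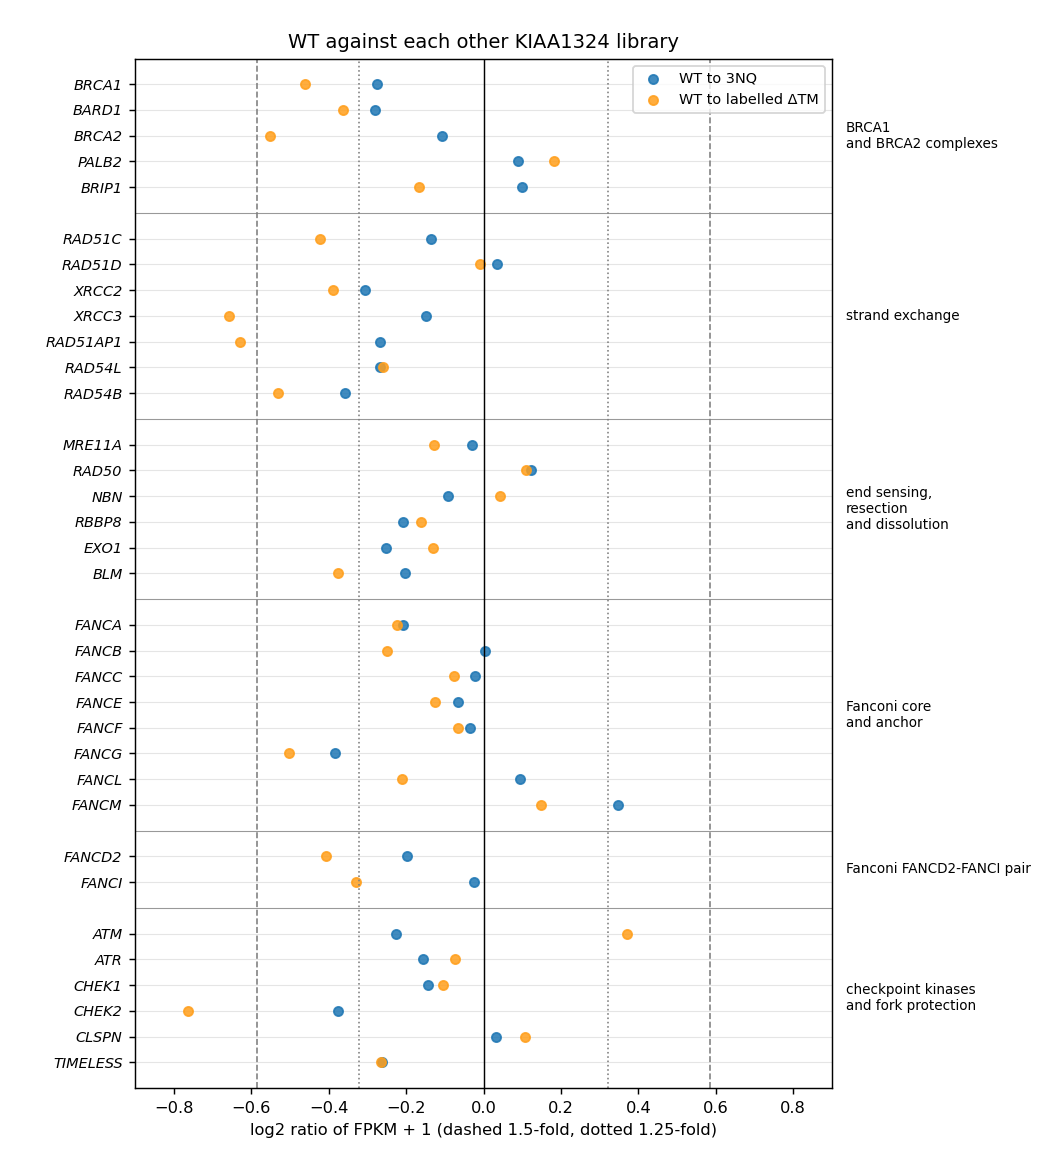
Log2 ratio of FPKM + 1 of WT to 3NQ (blue) and of WT to the ΔTM-labelled library (orange) for each gene, with dashed lines at 1.5-fold and dotted lines at a log2 ratio of 0.32. Orange points pass the lower dashed line for CHEK2, XRCC3 and RAD51AP1, and no blue point does.

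BRCA1 and BARD1 form the ubiquitin ligase that promotes end resection. BRCA1 stood at an FPKM of 12.1 in WT, 14.8 in 3NQ, 17.01 in the ΔTM-labelled library and 17.7 in Luc. Its partner BARD1 was at 9.44, 11.7, 12.4 and 14.4 in the same order. Both genes kept nearly the same proportion in every library, with a BRCA1 to BARD1 ratio between 1.23 and 1.37, and WT was at 68.3% and 65.6% of Luc.

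BRCA2 acts on the resected DNA, and PALB2 joins it to BRCA1. BRCA2 was expressed at a low level, with an FPKM of 2.79 in WT, 3.09 in 3NQ, 3.42 in Luc and 4.56 in the ΔTM-labelled library. PALB2 was at 9.44 in the ΔTM-labelled library, 10.1 in 3NQ, 10.8 in Luc and 10.9 in WT. PALB2 thus stayed within 1.15-fold over the 4 libraries, whereas BRCA2 spanned 1.63-fold. BRIP1, a helicase bound to BRCA1, had an FPKM of 2.46 in 3NQ, 2.71 in WT, 3.16 in the ΔTM-labelled library and 3.33 in Luc, and here 3NQ rather than WT was lowest.

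The genes of strand exchange, the step in which a resected end pairs with the sister chromatid, had mostly low values in WT. Of the 7 genes, 6 were lowest in WT (26.6% of all genes were) and 5 passed the lower threshold against Luc (12.7% of all genes did). RAD51AP1, which stimulates strand invasion, was at 21.3 in WT, 25.9 in 3NQ, 33.5 in the ΔTM-labelled library and 34.8 in Luc. The libraries fell into a lower pair of WT and 3NQ and a higher pair, and the log2 ratio to Luc was −0.68 in WT and −0.42 in 3NQ. RAD51AP1 (ENSG00000111247, chromosome 12, 4647950 to 4669214 in GRCh37, plus strand) has a processed pseudogene in the annotation, whose part in the value was not tested.

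RAD54B, a DNA translocase of strand exchange, was at 13.9 in WT, 18.1 in 3NQ, 20.5 in the ΔTM-labelled library and 21.7 in Luc. Its log2 ratio in WT was −0.61, and it missed the threshold with a pseudocount of 5 (−0.50). In the GENCODE annotation, 3511 of its 5319 exonic bases are shared with FSBP on the same strand, a gene whose FPKM was between 2.47 and 4.73. RAD54L, the other translocase of this family, was also lowest in WT, at 12.9, with 15.6 in the ΔTM-labelled library, 15.7 in 3NQ and 17.3 in Luc.

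The other genes of strand exchange differed among themselves. XRCC2 was at 6.80 in WT, 8.66 in 3NQ, 9.21 in the ΔTM-labelled library and 9.27 in Luc. XRCC3 was at 7.30 in WT, 8.19 in 3NQ, 9.80 in Luc and 12.1 in the ΔTM-labelled library. In the GENCODE annotation 5756 of its 7507 exonic bases lie opposite KLC1, whose higher entry had an FPKM of 31.7 to 45.0. The FPKM rest on an earlier annotation, in which these genes overlap only from 104163946 to 104167888 on chromosome 14. With the library kit and the default options that the study states, strand is not kept. Reads of XRCC3 and KLC1 therefore cannot be told apart where their exons overlap. RAD51C, which shares a complex with XRCC3, was at 26.4 in WT, 29.1 in 3NQ, 32.3 in Luc and 35.8 in the ΔTM-labelled library. RAD51D, in contrast, was lowest in Luc, at 7.18, with 7.60 in 3NQ, 7.80 in WT and 7.86 in the ΔTM-labelled library. The RAD51C to RAD51D ratio was therefore 3.39 in WT and 4.49 in Luc.

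Genes of end sensing and resection were split. MRE11A, RAD50 and NBN encode the nuclease complex that finds the break and activates ATM. MRE11A was at 27.1 in WT, 27.7 in 3NQ, 29.7 in the ΔTM-labelled library and 31.1 in Luc. RAD50 was at 21.4 in WT, 19.5 in 3NQ, 19.7 in the ΔTM-labelled library and 19.1 in Luc. In the GENCODE annotation it shares 8124 of its 10565 exonic bases with another protein-coding gene model on the same strand (ENSG00000283782). Whether the earlier annotation behind the FPKM held this model was not checked. NBN was at 38.1 in WT, 40.7 in 3NQ, 36.96 in the ΔTM-labelled library and 35.1 in Luc. RBBP8, the CtIP protein that starts resection, was at 13.04 in WT, 14.3 in Luc, 14.7 in the ΔTM-labelled library and 15.2 in 3NQ. None of these 4 genes spanned more than 1.17-fold over the libraries. EXO1 and BLM, which carry out long-range resection, were lower in WT. EXO1 was at 15.6 in WT, 17.2 in the ΔTM-labelled library, 18.7 in 3NQ and 20.6 in Luc. BLM, a helicase that also dissolves crossed strands, was at 9.22 in WT, 10.8 in 3NQ, 12.3 in the ΔTM-labelled library and 12.4 in Luc.

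The Fanconi core complex is the ubiquitin ligase of the pathway, with FANCL as its catalytic subunit and FANCM as its anchor on DNA. Of the 8 genes, 7 were below Luc in WT and all 8 were in 3NQ (50.9% and 57% of all genes were), with medians of −0.28 and −0.27. FANCG was at 28.4 in WT, 37.3 in 3NQ, 38.4 in Luc and 40.6 in the ΔTM-labelled library, so that WT alone stood apart. FANCB, at a low level, was at 2.17 in both WT and 3NQ, 2.77 in the ΔTM-labelled library and 3.39 in Luc.

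FANCL was lowest in 3NQ, at 30.2, with 32.4 in WT, 37.6 in the ΔTM-labelled library and 38.9 in Luc. FANCM was likewise lowest in 3NQ, at 3.06, with 3.66 in the ΔTM-labelled library, while WT (4.17) and Luc (4.16) had almost the same level. FANCC was at 21.2 in Luc and 16.9 in WT, 17.2 in 3NQ and 17.9 in the ΔTM-labelled library, a pattern in which Luc rather than WT stood apart. The other subunits were each lowest in WT and highest in Luc. FANCA was at 10.4 in WT, 12.2 in 3NQ, 12.3 in the ΔTM-labelled library and 12.4 in Luc. FANCE was at 6.98, 7.35, 7.71 and 8.89 in the same order, and FANCF at 5.44, 5.59, 5.74 and 5.83, a span of 1.07-fold.

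FANCD2 and FANCI form the clamp that the core complex ubiquitinates. FANCD2 (ENSG00000144554, chromosome 3 of GRCh37, 10068098 to 10143614) was at 12.7 in WT, 14.7 in 3NQ, 17.1 in the ΔTM-labelled library and 19.3 in Luc. FANCI (ENSG00000140525, chromosome 15, 89787180 to 89860492) was at 89.4, 90.9, 113 and 131 in the same order. The log2 ratios of FANCD2 and FANCI to Luc were −0.57 and −0.55 in WT, −0.37 and −0.52 in 3NQ and −0.17 and −0.22 in the ΔTM-labelled library. FANCI was 6.19 to 7.05 times as abundant as FANCD2 per length in all 4 libraries. The annotation places 458 of 17853 exonic bases of FANCI opposite POLG, which had an FPKM of 23.0 to 24.7. It also holds an unprocessed pseudogene of FANCD2, whose part in the value was not tested.

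The checkpoint genes were divided between the effector kinases. CHEK2, which ATM activates at double-strand breaks, had the largest difference of the module. It was at 17.6 in WT, 23.2 in 3NQ, 29.0 in Luc and 30.6 in the ΔTM-labelled library. WT was at 60.7% of Luc, with a log2 ratio of −0.69 to Luc, −0.38 to 3NQ and −0.76 to the ΔTM-labelled library. CHEK2 (ENSG00000183765) is on the minus strand of chromosome 22, at 29083731 to 29138410 in GRCh37. The annotation holds 7 CHEK2 pseudogenes, of which 1 is in the table, at 0 in every library, and the level of CHEK2 is uncertain to the extent that reads matched these copies. Of its 4493 exonic bases, 293 lie opposite HSCB, which had an FPKM of 9.97 to 12.6. In all, 25 of the 34 genes share exonic bases with another gene in the GENCODE annotation. Some of these overlaps are absent from the earlier annotation behind the FPKM, such as those of FANCB with GLRA2 and of NBN with OSGIN2. BRCA1, MRE11A and RBBP8 also have a pseudogene in the annotation, whose part in their values was not tested.

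CHEK1, which ATR activates at stalled forks, was at 65.8 in WT, 70.9 in the ΔTM-labelled library, 72.8 in 3NQ and 74.6 in Luc. It spanned 1.13-fold, and the ratio of CHEK1 to CHEK2 was 3.73 in WT, 3.14 in 3NQ, 2.57 in Luc and 2.31 in the ΔTM-labelled library. Among the upstream kinases, ATR was at 9.84 in WT, 10.4 in the ΔTM-labelled library, 11.1 in 3NQ and 11.2 in Luc. ATM was at 10.1 in the ΔTM-labelled library, 12.9 in Luc, 13.3 in WT and 15.7 in 3NQ, so that WT and Luc lay between the other two.

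CLSPN encodes Claspin, the adaptor of CHEK1, and TIMELESS a protein that steadies the fork. CLSPN was at 11.9 in the ΔTM-labelled library, 12.6 in 3NQ, 12.9 in WT and 13.8 in Luc. TIMELESS was at 16.0 in WT, 19.4 in both 3NQ and the ΔTM-labelled library and 22.0 in Luc. TIMELESS therefore passed the lower threshold against Luc in WT (−0.44), and CLSPN (−0.09) did not.

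The rest of the pathway was followed with lists of genes that are not in the module. Of 22 other genes of homologous recombination with an FPKM of 1 or more, 2 were lower than Luc in WT by 1.5-fold and none was higher (3.3% and 3.35% of all genes were, here and for the lists that follow), and the median log2 ratio was −0.15. They were RMI2, a partner of BLM (25.03 in WT and 29.0 in 3NQ, against 37.1 in the ΔTM-labelled library and 43.2 in Luc), and the meiotic recombinase DMC1, which was near or below the floor in every library (log2 ratio −1.02). SHFM1, the small partner of BRCA2 and the most abundant of the list, was between 126 and 138.

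Of 13 other Fanconi genes, 1, UBE2T, the ubiquitin-conjugating enzyme that works with FANCL, was called lower in WT (−0.71) and none was called higher. UBE2T stood at an FPKM of 32.6 in WT, 44.1 in 3NQ, 54.0 in Luc and 55.6 in the ΔTM-labelled library. USP1, which removes the ubiquitin from FANCD2, was at 40.3 in WT and between 52.1 and 60.4 elsewhere. The list had a median of −0.25, and 12 of its genes were below Luc in WT (50.9% of all genes were).

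Among 25 other checkpoint genes, 2, the phosphatase CDC25C (−0.74) and DBF4, the activator of the replication kinase CDC7 (−0.59), were called lower in WT, and none was called higher. Their median was −0.18. H2AFX, the histone variant that marks breaks, was the most abundant, at 80.9 in WT and between 110.0 and 120 in the other libraries.

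The other repair pathways were described in the same way. Over the 11 genes of end joining, which rejoins breaks without a template, the median log2 ratio of WT to Luc was 0.023, and none was called in either direction. Its most abundant gene, XRCC6 (Ku70), was at 209 in WT and between 235 and 252 elsewhere. Nucleotide excision repair (19 genes) had a median of −0.0012 with none called, and RAD23B, a damage sensor, was between 579 and 640.

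Base excision repair (18 genes) had a median of −0.034 and 1 gene called higher, the glycosylase NEIL1, from 1.14 in Luc to 2.81 in WT. APEX1, its main endonuclease, was between 128 and 138. All 7 mismatch repair genes were below Luc in WT (50.9% of all genes were), with a median of −0.29 that was the same as in the module, and none was called. MSH6, its most abundant gene, was at 43.96 in WT and between 49.98 and 58.1 elsewhere. Differences between these lists were not tested, because genes of 1 library are not replicates.

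**Figure D5:**
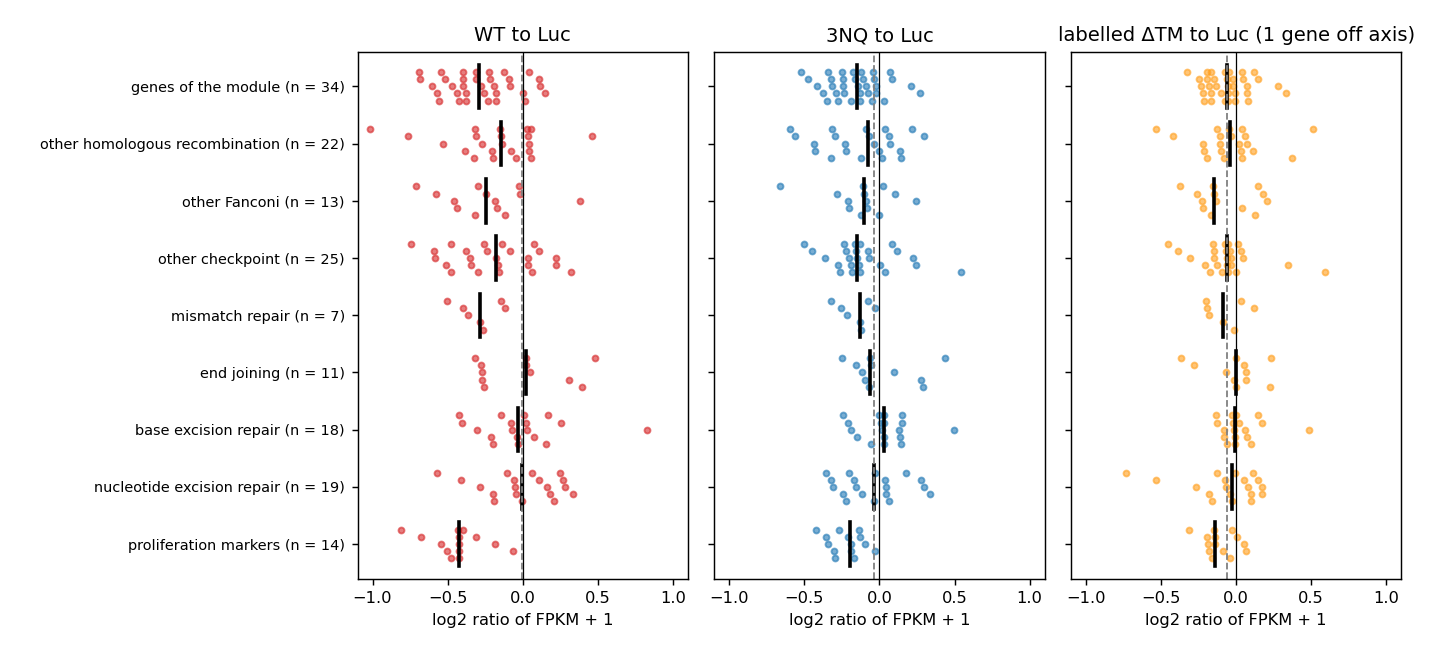
Log2 ratio of FPKM + 1 to Luc for the genes of the module, the other lists of the same pathways, other repair pathways and proliferation markers, with 1 panel for each library, 1 point for each gene, a black bar at the median of the list and a dashed line at the median of all genes. In WT the medians of the module (−0.29) and mismatch repair (−0.29) lie left of those of end joining (0.023) and nucleotide excision repair (−0.0012), and the proliferation markers lie farthest left.

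Proliferation markers were also lowest in WT. All 14 were below Luc in WT (50.9% of all genes were), with a median log2 ratio of −0.42. Of them, 13 had their lowest value in WT (against 26.6% of all genes). In 3NQ the median was −0.20 and in the ΔTM-labelled library −0.14. PCNA, the replication clamp, was at 212 in WT, 246 in 3NQ, 267 in the ΔTM-labelled library and 284 in Luc. TOP2A (−0.81) and CDK1 (−0.67) were called lower in WT. Summed over the list, the FPKM reached 1105 in WT, 1296 in 3NQ, 1432 in the ΔTM-labelled library and 1536 in Luc. In RNA from a whole culture fewer cells in S and G2 phase cannot be told apart from less RNA of these genes in each cell.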

How the data were processed

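Poly(A) RNA was sequenced by the authors as 1 library for each of 4 MKN28 lines. After a filter on read quality, the authors aligned to GRCh37 using TopHat, and Cufflinks (version 2.1.1) gave FPKM with a mask on non-coding genes and its options for ambiguous reads and sequence bias, which can shift levels of genes with near-identical copies. The deposited FPKM is scaled for gene length and library size; the table holds no counts, so that no interval could be given, and it holds 166 entries that repeat a symbol. The study's test on counts could not be rerun.

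Log2 ratios were taken of FPKM plus a pseudocount of 1, so that differences of low genes are understated. A gene was called at 1.5-fold, and a lower threshold was a log2 ratio of 0.32, among 11729 genes that passed the floor of FPKM 1. The steps were run with Python 3.11.15, numpy 2.4.6, pandas 2.3.3 and matplotlib 3.10.9. They were tested on simulated data with changes larger than any in the module. That test does not show how differences of the module's size are recovered. Every gene of the module is named. Of each other list, the genes named were those past 1.5-fold in WT against Luc, at most 3, and the most abundant in Luc; EPCAM, VIL1, CDX2, COL1A1, CD68, partners with shared exons and RAD51B, RAD52 and UIMC1 were chosen after their values were seen. The genes of the module and the lists were chosen with earlier results of these data known, and the lists were written from general knowledge. A gene of the list of other homologous recombination genes is not reported here. Promoters came from RefSeq (GRCh38.p14), matched for 32 of 34 genes, and exon overlaps from GENCODE on GRCh37. This GENCODE release is later than the annotation behind the FPKM, so that its exons can differ from those that were measured. Alternatives were the fold threshold, the pseudocount, the filter, library scaling, repeated symbols, the control and the choice of genes.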

Additional observations from a re-analysis of the deposited data

How the results depend on the processing

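No gene called against Luc and no median of the module changed direction under any alternative tried. Thresholds and filters do not enter a gene's ratio, so that its direction could not change under them. Directions of the genes called in the other comparisons were not followed. The medians of the module moved by less than 0.1, except where the mean of 3NQ and the ΔTM-labelled library replaced Luc as the control of WT. That median was −0.18, with 0 genes lower by 1.5-fold, where 1.85% of all genes were. Against the mean of the other 3 libraries 1 gene, CHEK2, was lower in WT (2.94%, against 1.85% of all genes). A 2-fold threshold left 0 genes lower in WT against Luc (0.571% of all genes) or against the ΔTM-labelled library (0.699%). It left 0 higher in 3NQ against that library (0.392%). At such small shares a count of 0 says little about the module. At the lower threshold (0.32), 15 genes were lower in WT, 7 in 3NQ and 1 in the ΔTM-labelled library against Luc, with 1 higher in the last; 3 were lower and 1 higher in WT against 3NQ, 13 lower and 1 higher in WT against the ΔTM-labelled library, and 4 lower in 3NQ against that library. The shares of all genes at this threshold are those given with each comparison above. With a pseudocount of 0.1, 6 genes were lower in WT (5.54% of all genes) and 1 in 3NQ (4.89%) against Luc. With a pseudocount of 5, 1 gene was lower in WT against the ΔTM-labelled library (1.18% of all genes) and 0 higher in 3NQ against it (0.477%). The median of ratios also left 0 higher in the last comparison, and the upper quartile gave 5 lower in WT against the ΔTM-labelled library. WT was lowest for 25 genes under the median of ratios. Without the ΔTM-labelled library WT was lowest for 24, a count that could not fall when a library other than WT is left out. The shares of all genes lowest in WT under these settings were not taken. An E2F motif within 150 bases of the start occurred in 15.6% of the promoters. No paired analysis was possible because each group has 1 library.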

Other observations

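Outside the module, 3 genes of homologous recombination had patterns that WT did not lead. RAD51B had an FPKM of 10.5 in Luc and between 6.62 and 6.97 in the other 3 libraries. RAD52, a strand annealing protein, was at 4.20 in Luc and between 5.39 and 6.41 elsewhere. UIMC1, which brings BRCA1 to ubiquitin marks at breaks, was at 77.2 in the ΔTM-labelled library and between 6.88 and 7.29 in the others. These genes were chosen after their values were seen, and 1 library a group gives no check of them.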
